A study of Mus musculus with 12 samples.

Results

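RNA from cultured neurospheres of knockout mouse embryos was compared with RNA from knockout whole brains. Neurospheres are floating clusters that neural stem and progenitor cells form in culture. The libraries were chosen by their labels: 3 of primary neurospheres and 3 of whole brain, 6 of the 12 libraries of the series. Both groups carry the genotype (P)RR_CKO, a conditional knockout of the (pro)renin receptor, the product of Atp6ap2. All 12 libraries are labelled male and C57BL/6J. The brains were taken whole at embryonic day 15. The neurospheres came from forebrain at embryonic day 16, so the region, the stage and the culture differ together between the groups and cannot be told apart. The other 6 libraries are controls with the genotype Wildtype, whose titles read fy/- where those of the knockout read fy/cre, and they are used only to set the knockout difference beside the control one. No source used here gives the Cre driver, the deleted part of the gene, the culture medium or the time in culture.

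The (pro)renin receptor is an accessory protein of the V-ATPase, the proton pump that acidifies lysosomes and other vesicles. The receptor also binds renin and prorenin. In the embryonic forebrain, radial glia divide along the ventricle and give rise first to neurons, often through intermediate progenitors, and later to astrocytes and oligodendrocytes. Neurosphere cultures are grown to expand dividing progenitors, whereas a whole brain also holds neurons of every region, blood, vessels and immune cells.

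CKO brain libraries held 5738810 to 6154400 exon reads and CKO neurosphere libraries 13167498 to 18636787, so low levels are read more precisely in neurospheres. Of the reads placed in genes, 64.0 to 65.0% fell outside exons in the brains and 7.64 to 10.5% in the neurospheres. Levels below are normalised CPM, exon reads scaled to library size, except where RPKM, which also divides by exon length, is named. The first principal component of log2 CPM carried 91.0% of the variance and separated the groups. Within the neurospheres, replicate 1 stood apart from replicates 2 and 3: chi-square per degree of freedom was 30.6 and 37.4 for pairs with it and 12.3 without it. Among the brains it was 3.81 to 6.14. This measure grows with the number of reads, which was greater in the neurospheres, so it does not compare the spread of the 2 groups. Whether replicates are separate animals or cultures is not in the labels, so p-values measure only the spread between these libraries.

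Atp6ap2, the targeted gene, did not differ detectably between CKO neurospheres and CKO brains. Its level was 57.3, 64.1 and 61.3 CPM in the brains and 64.6, 50.8 and 56.4 CPM in the neurospheres, and the groups overlapped. The log2 fold change of neurospheres over brains was -0.09 ± 0.11 (SE, n = 3 per group; edgeR adjusted p = 0.485). In reads over exon-exon junctions the difference was -0.42 (edgeR adjusted p = 0.0197), and in all reads of the gene, introns included, it was 0.38 (adjusted p = 0.0115). In the controls the level was 61.6, 63.9 and 73.9 CPM in brain and 101.3, 102.2 and 100.9 CPM in neurospheres, with no overlap. The neurosphere-brain difference was thus 0.68 ± 0.15 lower on the log2 scale in CKO than in control (adjusted p = 0.0155 for the difference). Whole-gene counts include reads of any exons that the knockout leaves in place.

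Across all genes the groups lay far apart. Of 13939 genes tested, 5401 (38.7%) were higher and 5192 (37.2%) lower in CKO neurospheres at an adjusted p below 0.05, 76.0% in either direction. A test against a 2-fold change left 2066 genes higher (14.8%) and 2745 lower (19.7%), 34.5% in either direction. The median log2 fold change over all genes was 0.03, and the libraries of the groups did not overlap for 79.4% of genes. With so many genes called, the counts of the gene lists below are read against these shares.

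By RPKM the neurospheres were led by Eef1a1, a translation elongation factor (4247 RPKM), Ckb, brain creatine kinase (4087 RPKM), Tmsb4x, an actin-binding peptide (1694 RPKM), Vim, the intermediate filament vimentin (1669 RPKM), and Fabp7, the fatty acid binding protein of radial glia (1595 RPKM). The brains were led by Tuba1a, an alpha-tubulin of growing neurons (2140 RPKM), Eef1a1 (1896 RPKM), Actb (1440 RPKM) and the haemoglobin gene Hba-a2 (1174 RPKM). Ckb reached only 241 RPKM in the brains, a log2 fold change of 4.08 towards neurospheres (edgeR adjusted p = 1.06e-06).

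Genes of neurons were lower in the neurospheres. Of 24 pan-neuronal markers, 22 were lower and 1 higher, with a median log2 fold change of -2.17. Dcx, doublecortin of migrating neurons, was at 1681, 1608 and 1685 CPM in the brains and at 170, 88.3 and 96.8 CPM in the neurospheres. All 3 brains lay above all 3 neurosphere libraries, and neurosphere replicate 1 was the highest of its group. The log2 fold change was -3.81 ± 0.25 (edgeR adjusted p = 7.43e-06). Tubb3, the neuronal beta-tubulin, was at 854, 898 and 884 CPM in the brains and 116, 93.7 and 119 CPM in the neurospheres. These groups did not overlap either (log2 fold change -3.01 ± 0.11; adjusted p = 9.42e-07). The microtubule-associated protein gene Map1b had a log2 fold change of -2.90 ± 0.26, the tubulin-binding stathmin gene Stmn2 -2.02 ± 0.26 and the dendritic Map2 -1.17 ± 0.13. Gap43, a growth cone protein, was the member that did not pass the test (0.26 ± 0.20; adjusted p = 0.261). Thy1, a surface protein of mature neurons that other cells also carry, was the 1 member that was higher, with 1.30, 1.37 and 1.97 CPM in the brains and 43.8, 59.0 and 84.3 CPM in the neurospheres. In whole-tissue and whole-culture RNA, fewer cells of a type and less RNA per cell cannot be told apart.

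**Figure D1:**
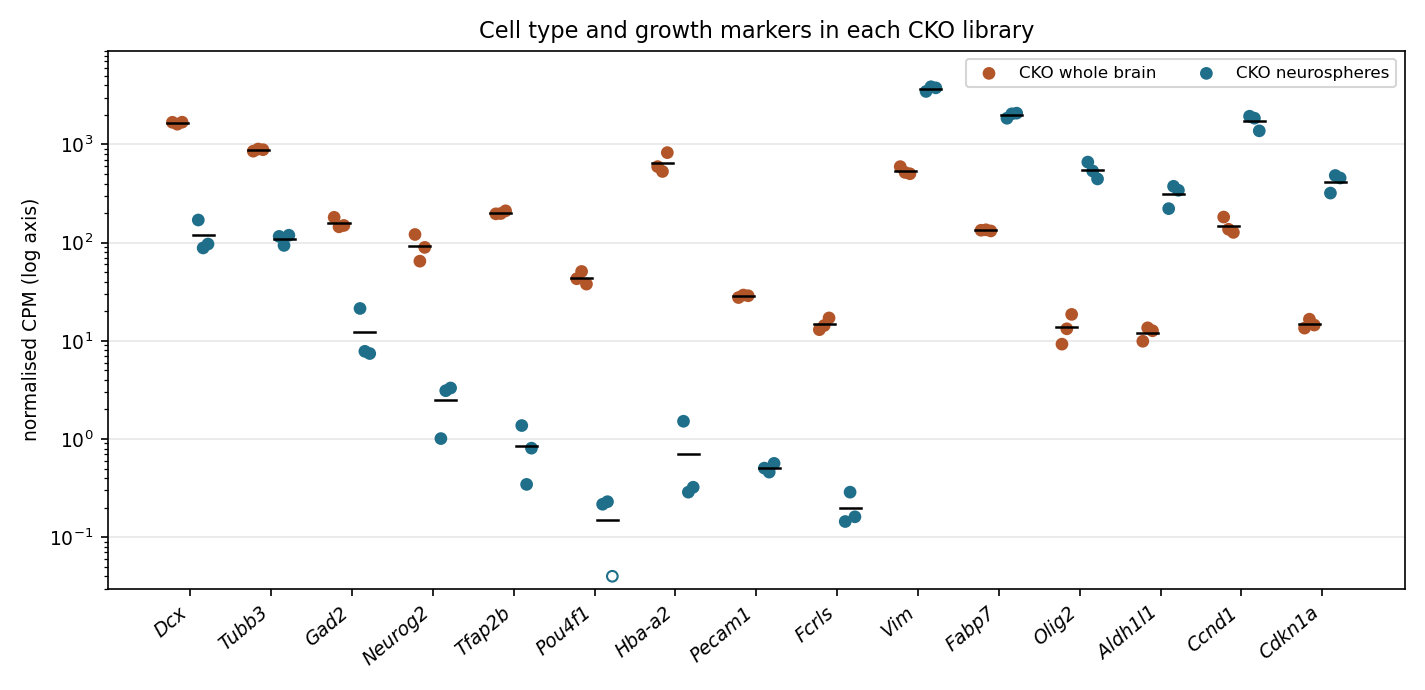
Normalised CPM on a log axis of marker genes in each of the 3 CKO brain and 3 CKO neurosphere libraries, with black bars at the group means. The hollow point, drawn at the foot of the axis, is a neurosphere library with 0 reads of Pou4f1. Markers of neurons, blood, vessels and microglia lie higher in the brains. Vim and Fabp7 of radial glia, Olig2 of the oligodendrocyte lineage and Aldh1l1 of astrocytes lie higher in the neurospheres. Cyclin D1 (Ccnd1) and the cell cycle inhibitor p21 (Cdkn1a) do so too.

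Genes of the step from progenitor to neuron separated by member. Of 16 proneural and intermediate progenitor genes, 10 were lower, 9 of them by more than 2-fold, and 3 were higher, with a median of -3.37. In junction reads 10 of them could be tested, of which 4 were lower and 3 higher, with a median of -0.57. Neurog2, the proneural transcription factor of the cortex, was at 121, 64.7 and 89.4 CPM in the brains and 1.01, 3.10 and 3.31 CPM in the neurospheres. Eomes, the transcription factor that defines cortical intermediate progenitors, was at 109, 59.1 and 99.5 CPM in the brains and 1.80, 1.38 and 2.58 CPM in the neurospheres. For both genes every brain lay above every neurosphere library, with log2 fold changes of -5.20 ± 0.40 (edgeR adjusted p = 1.4e-05) and -5.56 ± 0.32 (adjusted p = 4.01e-06). Hes6, a Hes family member expressed during neurogenesis, was higher, from 59.1, 51.8 and 46.5 CPM to 80.2, 117 and 126 CPM (log2 fold change 1.04 ± 0.18; adjusted p = 0.000997).

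Genes of neuron classes were lower as well. Of 20 cortical projection neuron genes, 15 were lower and 2 higher (median -1.96), the latter 0 in junction reads and with library totals. Among them the transcription factor genes Foxp2 (-5.53 ± 0.25), Bcl11b (-3.47 ± 0.34), Tbr1 (-2.88 ± 0.41) and Neurod6 (-2.62 ± 0.29) all passed. Of 18 inhibitory neuron markers, 14 were lower and 0 higher (median -2.41). Gad2, which makes GABA at the synapse, was at 181, 145 and 150 CPM in the brains and 21.4, 7.82 and 7.42 CPM in the neurospheres, and its partner enzyme Gad1 at 94.3, 89.7 and 94.5 against 60.8, 19.8 and 21.0 CPM. Neurosphere replicate 1 was the highest of its group for both, yet below every brain. The transcription factor genes of ventral forebrain progenitors and interneurons Dlx1 (-2.93 ± 0.33), Dlx2 (-3.15 ± 0.30) and Lhx6 (-1.56 ± 0.33) were also lower. Of 18 monoaminergic, cholinergic and glycinergic markers, 10 had enough reads to test and all 10 were lower (median -5.27). They include Slc18a2, the vesicular monoamine transporter (-2.99 ± 0.20), Ddc, which makes dopamine and serotonin (-3.57 ± 0.31), and Isl1, a transcription factor of cholinergic and motor neurons (-5.25 ± 0.25). The 18 markers summed to 116 to 153 CPM in the brains and 6.96 to 8.47 CPM in the neurospheres. Members thus reached the test mainly through the brains, so the count of 10 is no support for the list.

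Transcription factors that mark brain regions were mostly lower, those of the forebrain included. Of 20 telencephalic factors, 13 were lower and 1 higher (median -1.28). Emx2, a factor of dorsal forebrain progenitors, was the member that was higher (0.72 ± 0.18; edgeR adjusted p = 0.0069), and its call ended in junction reads. Lhx2, a cortical selector gene, was lower (log2 fold change -0.63 ± 0.19; adjusted p = 0.018), and its call ended without CKO brain replicate 1 (adjusted p = 0.0781), with all 12 libraries in the fit (0.062), in all reads of the gene (0.0589) and with the labels' replicate number as a block (0.0524). All 16 diencephalic factors tested were lower (median -5.28). Lhx9, a factor of the thalamus and pretectum, was at 165, 138 and 141 CPM in the brains and 1.44, 1.78 and 0.807 CPM in the neurospheres. Tcf7l2, a Wnt effector of the thalamus (-2.85 ± 0.30), Otp, a factor of hypothalamic neurons (-6.59 ± 0.24), Barhl2 (-2.47 ± 0.32), and the LIM factor genes Lhx1 (-5.61 ± 0.30) and Lhx5 (-5.32 ± 0.33) were lower. Pou4f1, a factor of the habenula, held 3, 4 and 0 reads in the neurosphere libraries and was at 42.8, 50.9 and 37.8 CPM in the brains. Of 21 midbrain and hindbrain factors tested, 20 were lower and 1 higher (median -5.18). The midbrain gene En2 (-2.62 ± 0.27) and Zic1 (-2.09 ± 0.12) and Zic4 (-2.62 ± 0.17), factors of the cerebellum and dorsal midline, were lower. Egr2 was the member that was higher, from 0.325, 1.37 and 0.822 CPM to 3.68, 5.12 and 4.68 CPM. Egr2 marks the hindbrain and is also induced by growth factors.

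None of 29 Hox genes, which mark the hindbrain and spinal cord, had enough reads in enough libraries to be tested in the main fit. Without CKO neurosphere replicate 1, 12 could be tested, of which 5 were lower and 0 higher. Members could reach that test through the brains alone, so this count is no support for the list. Brain replicates 1, 2 and 3 held 7, 1573 and 490 Hox reads, and neurosphere replicates 1, 2 and 3 held 1, 3 and 101. The brains thus differed among themselves in Hox reads, and their part in other results was not tested beyond leaving out brain replicate 2, an alternative added after the data were seen. Without it, the pan-neuronal and inhibitory markers (lower) and the astrocyte markers, replication genes and mitosis genes (higher) kept their direction, with 22 of 24, 14 of 18, 14 of 18, 40 of 40 and 39 of 43 members called that way. Without neurosphere replicate 1, likewise added, the counts were 22 of 24, 15 of 18, 15 of 17, 40 of 40 and 39 of 43.

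Genes of connectivity and excitability were lower too. Of 33 synaptic genes, 28 were lower and 1 higher (median -1.02), of 36 glutamate and GABA receptor subunits 30 and 3 (median -1.84), of 33 voltage-gated channel subunits 28 and 4 (median -2.37), and of 32 axon guidance receptors and cues 30 and 1 (median -2.14). Nrxn3, a presynaptic adhesion protein, was at 326, 339 and 312 CPM in the brains and 33.3, 13.5 and 10.7 CPM in the neurospheres. Dcc, the receptor for netrin, was at 624, 554 and 538 CPM in the brains and 23.2, 16.4 and 15.9 CPM in the neurospheres. In both the groups lay apart, with log2 fold changes of -4.09 ± 0.40 (edgeR adjusted p = 4.63e-05) and -4.95 ± 0.17 (adjusted p = 8.44e-07). Ntn1, netrin itself, was the guidance gene that was higher (0.98 ± 0.13), although not in junction reads. The members that were higher also included Camk2b, a calcium-dependent kinase (2.16 ± 0.16), and the potassium channel genes Kcnc1 (2.23 ± 0.20) and Kcnd3 (1.60 ± 0.09). Gria2, an AMPA receptor subunit (-1.59 ± 0.34), the metabotropic receptor gene Grm8 (-4.01 ± 0.40) and the channel gene Kcnb2 (-4.51 ± 0.21) were lower.

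Blood, vessel and immune cell genes were mostly lower in the neurospheres. Hba-a2, an alpha-globin, was at 594, 530 and 826 CPM in the brains and 1.52, 0.287 and 0.323 CPM in the neurospheres. Hbb-bs, a beta-globin, went from 383, 336 and 641 CPM to 0.794, 0.0575 and 0.0807 CPM. Globin RNA is made by red cells, and the globin genes are close copies of each other, so reads may be split among them. All 8 erythroid genes tested, of 16 listed, were lower. Their median log2 fold change was -10.29 as fitted and -10.02 with the genes at 0 in neurospheres held at their bound. The erythroid genes of the list summed to 1496 to 2094 CPM in the brains and 0.632 to 4.475 CPM in the neurospheres. The 8 tested thus passed the read filter through the brains, so their count and median are no support for the list. Hbb-bt was at least 2480-fold lower and Alas2, the first enzyme of haem synthesis in red cells, at least 240-fold lower, from a floor of 3 reads over the 3 neurosphere libraries.

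Of 20 microglia and macrophage markers tested, 18 were lower and 1 higher (median -5.48), and their summed level was 142 to 184 CPM in the brains and 7.43 to 17.3 CPM in the neurospheres. Fcrls, a microglial receptor, was at 12.98, 14.3 and 17.1 CPM in the brains and 0.144, 0.287 and 0.161 CPM in the neurospheres. P2ry12, the purine receptor of microglia, had a log2 fold change of -2.38 ± 0.40 and Lyz2, lysozyme, -4.41 ± 0.48. The microglial receptor genes Cx3cr1 and Csf1r held 1 and 3 reads over the 3 neurosphere libraries. Of 21 endothelial markers tested, 18 were lower and 0 higher (median -4.69). Pecam1, the endothelial adhesion molecule, was at 27.6, 29.2 and 28.8 CPM in the brains and 0.505, 0.460 and 0.565 CPM in the neurospheres (log2 fold change -5.79 ± 0.19; edgeR adjusted p = 8.24e-07). Kdr, a receptor for VEGF (-4.69 ± 0.14), Cdh5, the cadherin of vessels (-4.63 ± 0.36), and Cldn5, a tight junction protein of the blood-brain barrier (-7.69 ± 0.53), were lower with it.

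Of 21 pericyte, smooth muscle and meningeal markers, 16 were lower and 0 higher (median -2.25). Rgs5, a pericyte marker, was at 81.1, 83.9 and 97.99 CPM in the brains and 1.95, 2.99 and 3.63 CPM in the neurospheres. The fibroblast genes varied within groups instead. Col1a1 was at 165, 908 and 166 CPM in the brains and 23.96, 11.7 and 388 CPM in the neurospheres. Col3a1 was at 276, 563 and 265 CPM against 80.3, 26.1 and 636 CPM. Brain replicate 2 and neurosphere replicate 3 were the highest of their groups for both collagens, and the groups overlapped. Neither gene passed with all libraries (edgeR adjusted p = 0.338 and 0.643), and both were lower without neurosphere replicate 3 (adjusted p = 0.00666 and 0.00519). Pdgfrb, the PDGF receptor of pericytes, was lower (-2.25 ± 0.68; adjusted p = 0.0169), but its call ended without brain replicate 2 (adjusted p = 0.0592), without neurosphere replicate 1 (0.155), without a filter on low counts (0.0731) and in all reads of the gene (0.065). Of 26 collagen chains, 5 were higher and 8 lower. Col2a1, of cartilage and notochord (-4.72 ± 0.74), and Col4a1, of basement membranes (-1.79 ± 0.34), were lower, and Col5a3 was higher, at 51.4, 34.2 and 36.6 CPM in the neurospheres and 1.14, 2.74 and 1.48 CPM in the brains. Of 17 choroid plexus and ependymal markers, 11 had enough reads to test, of which 9 were lower and 0 higher. The list summed to 305 to 558 CPM in the brains and 82.1 to 218 CPM in the neurospheres. Members may have reached the test through the brains, so this count is no support for the list. Ttr, the transthyretin of the choroid plexus, had a log2 fold change of -1.69 ± 0.58 (adjusted p = 0.0281), a call that ended without brain replicate 2, brain replicate 3 or neurosphere replicate 3.

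Genes of radial glia and neural stem cells were higher in the neurospheres, with exceptions. Of 24 such markers, 15 were higher, 12 of them by more than 2-fold, and 5 lower (median 1.51). Vim was at 595, 518 and 503 CPM in the brains and 3466, 3868 and 3770 CPM in the neurospheres. Fabp7 was at 134, 135 and 132 CPM in the brains and 1848, 2051 and 2082 CPM in the neurospheres. The groups lay far apart for both, with log2 fold changes of 2.78 ± 0.10 (edgeR adjusted p = 8.58e-07) and 3.90 ± 0.09 (adjusted p = 4.73e-07). Nes, the intermediate filament nestin, was at 417, 323 and 303 CPM in the brains and 1699, 1245 and 1040 CPM in the neurospheres (1.93 ± 0.20). Slc1a3, a glutamate transporter of radial glia and astrocytes (3.31 ± 0.11), Sox2, which keeps progenitors undifferentiated (1.73 ± 0.22), and the secreted glycoprotein gene Mfge8 (4.33 ± 0.41) were higher too. Pax6, a factor of cortical radial glia, was at 69.9, 44.9 and 54.1 CPM in the brains and 34.7, 49.8 and 53.7 CPM in the neurospheres, with overlapping groups (adjusted p = 0.236). Id4, an inhibitor of helix-loop-helix factors, was lower (306, 242 and 266 CPM in the brains, 27.4, 34.5 and 39.4 CPM in the neurospheres). Hes5, an effector of Notch, was at 34.1, 26.5 and 22.7 CPM in the brains and 20.1, 96.9 and 142 CPM in the neurospheres. Its adjusted p of 0.0372 rested on few libraries: leaving out any library other than neurosphere replicate 1, which was the low one, ended the call. So did junction reads (adjusted p = 0.155), library totals (0.0565), no filter on low counts (0.1) and the replicate block (0.13).

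Targets of growth factor signalling were among the genes that were higher. Of 21 receptors and targets of the ERK pathway tested, 17 were higher and 2 lower (median 1.90). Etv4, a transcription factor induced by FGF, was at 3.41, 3.96 and 4.11 CPM in the brains and 116, 104 and 89.1 CPM in the neurospheres (log2 fold change 4.75 ± 0.15; edgeR adjusted p = 8.24e-07). Every neurosphere library lay above every brain for Etv4 and its relative Etv5 (3.41 ± 0.17). The feedback inhibitors of the pathway were higher with them: Spry2 (3.20 ± 0.13) and Dusp6 (2.47 ± 0.35). Fgfr1, an FGF receptor, was higher (1.29 ± 0.10), and Igf1r, the receptor for IGF1, was lower (-1.81 ± 0.11).

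Astrocyte markers were higher in the neurospheres. Of 18 astrocyte markers, 15 were higher and 3 lower (median 2.99). Aldh1l1, a folate enzyme of astrocytes, was at 9.90, 13.6 and 12.7 CPM in the brains and 222, 375 and 341 CPM in the neurospheres. Gfap, the astrocyte filament protein, was at 0.325, 0.305 and 0.164 CPM in the brains and 13.9, 235 and 420 CPM in the neurospheres. Neurosphere replicate 1 was the lowest of its group for both, but above every brain. The log2 fold changes were 4.70 ± 0.24 (edgeR adjusted p = 2.55e-06) for Aldh1l1 and 9.65 ± 1.88 (adjusted p = 0.00317) for Gfap, whose size rests on 2, 2 and 1 reads in the brains and whose call ended in junction reads (adjusted p = 0.158). Aqp4, the astrocyte water channel (5.28 ± 0.68), Apoe, apolipoprotein E (3.72 ± 0.49), Sparcl1, a secreted protein of astrocytes (3.31 ± 0.20), and Acsbg1, an acyl-CoA synthetase (5.25 ± 0.13), were higher. Gjb6, a connexin, was lower (-5.37 ± 0.53). S100b was higher by 1.05 ± 0.38 (adjusted p = 0.0347), a call that ended without brain replicate 1 or 3 or neurosphere replicate 2 or 3. It also ended with DESeq2 (0.0575), library totals (0.0672), all 12 libraries in the fit (0.0696) and the replicate block (0.0622).

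Of 12 oligodendrocyte precursor markers tested, 7 were higher and 2 lower (median 1.37). Olig2, the transcription factor of the lineage that ventral progenitors also make, was at 9.25, 13.2 and 18.6 CPM in the brains and 661, 536 and 446 CPM in the neurospheres. Olig1, its neighbour and relative, was at 8.11, 16.6 and 26.6 CPM against 1031, 1129 and 1009 CPM. Neither gene overlapped between groups, with log2 fold changes of 5.32 ± 0.27 (edgeR adjusted p = 2.43e-06) and 5.95 ± 0.37 (adjusted p = 5.38e-06). Bcan, the matrix protein brevican (5.67 ± 0.22), and Sox8 (3.27 ± 0.21) were higher. Pdgfra, the receptor that defines these precursors, was lower, at 34.4, 76.6 and 43.6 CPM in the brains and 10.0, 12.8 and 30.9 CPM in the neurospheres (-1.54 ± 0.46; adjusted p = 0.0156). That call ended without brain replicate 2 (adjusted p = 0.0685), neurosphere replicate 1 (0.109) or neurosphere replicate 2 (0.0501). It also ended without a filter on low counts (0.0518) and in all reads of the gene (0.169). Meningeal cells also make Pdgfra, and their part was not tested. Sox10, needed for myelination, did not pass (1.40 ± 0.89; adjusted p = 0.186), but passed without neurosphere replicate 1 (0.00956) and with the replicate block (0.0391). Of 17 myelin genes, 9 had enough reads to test, and 6 of these were lower and 2 higher (median -1.16). Mbp, myelin basic protein, was at 24.8, 30.5 and 31.2 CPM in the brains and 5.49, 4.71 and 4.52 CPM in the neurospheres (-2.55 ± 0.16; adjusted p = 6.22e-06), and Cnp, an enzyme of early oligodendrocytes, was higher (2.81 ± 0.36).

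Genes of DNA replication were higher in the neurospheres throughout the list. All 40 were higher, 22 of them by more than 2-fold, with a median log2 fold change of 1.25. Tk1, thymidine kinase, was at 18.0, 14.3 and 12.5 CPM in the brains and 80.6, 84.3 and 80.2 CPM in the neurospheres (2.45 ± 0.14; edgeR adjusted p = 3.75e-06). Pcna, the sliding clamp of DNA polymerase, was at 139, 103 and 105 CPM in the brains and 397, 413 and 409 CPM in the neurospheres (1.82 ± 0.13; adjusted p = 9.18e-06). Neurosphere libraries lay above all brains for both. The helicase gene Mcm3 (1.91 ± 0.18) and the ribonucleotide reductase genes Rrm1 (1.52 ± 0.14) and Rrm2 (1.72 ± 0.16) were higher.

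Of 43 mitosis and kinetochore genes, 41 were higher, 23 of them by more than 2-fold, and 0 lower (median 1.41). Plk1, a kinase of mitotic entry, was at 37.2, 28.6 and 27.9 CPM in the brains and 133, 145 and 130 CPM in the neurospheres. Cdc20, which activates the anaphase-promoting complex, was at 48.8, 42.2 and 36.8 CPM against 147, 168 and 164 CPM, and Ccnb1, cyclin B1, at 85.3, 65.2 and 65.3 CPM against 251, 263 and 257 CPM. Groups did not overlap for these 3 genes, and the log2 fold changes were 2.12 ± 0.13, 1.90 ± 0.12 and 1.84 ± 0.12 (edgeR adjusted p = 4.61e-06, 5.62e-06 and 6.32e-06). Mki67, the antigen Ki-67, differed less, at 620, 447 and 450 CPM in the brains and 696, 651 and 592 CPM in the neurospheres. Its groups overlapped, and its adjusted p of 0.0494 rose above the threshold without brain replicate 2 or 3 or neurosphere replicate 1 or 2. It was also above the threshold with every other scaling, with a mean of at least 1 CPM, with all 12 libraries in the fit and in junction reads (0.0537 to 0.892). Cenpf, a kinetochore protein, did not pass (0.02 ± 0.15; adjusted p = 0.896), but passed without brain replicate 1 (0.0366) and in all reads of the gene (0.000689).

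Since the mitosis genes moved together, their promoters were read for the motifs known from this gene class: the CCAAT box bound by NF-Y and the cell cycle homology region, searched as TTTGAA or TTCGAA, each on both strands. The windows ran from 250 bases before to 50 bases after the start in the RefSeq table for GRCm38.p6. For 35 of the 43 genes the table gave 37 windows. CCAAT stood in 78.4% of them, against 37.4% of all 32851 windows, TTTGAA or TTCGAA in 81.1% against 19.2%, and both in 73.0% against 7.52%. Among mitosis genes more than 2-fold higher in neurospheres, 13 of 18 windows held both, and among the other mitosis genes 14 of 19. A match is a description of these letters and not of a bound site. The promoters of the 3 genes given above are shown 5′ to 3′ on the gene's strand, with matches in capitals. They lie at chr7:122159185-122159484 (plus strand, Plk1), chr4:118437294-118437593 (minus strand, Cdc20) and chr13:100786437-100786736 (minus strand, Ccnb1).
Plk1: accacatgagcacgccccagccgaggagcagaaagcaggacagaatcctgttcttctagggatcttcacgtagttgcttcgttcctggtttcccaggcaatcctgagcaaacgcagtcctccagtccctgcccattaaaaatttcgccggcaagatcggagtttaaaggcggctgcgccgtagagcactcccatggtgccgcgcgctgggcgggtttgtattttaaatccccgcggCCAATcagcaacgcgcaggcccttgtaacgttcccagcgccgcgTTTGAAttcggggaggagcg
Cdc20: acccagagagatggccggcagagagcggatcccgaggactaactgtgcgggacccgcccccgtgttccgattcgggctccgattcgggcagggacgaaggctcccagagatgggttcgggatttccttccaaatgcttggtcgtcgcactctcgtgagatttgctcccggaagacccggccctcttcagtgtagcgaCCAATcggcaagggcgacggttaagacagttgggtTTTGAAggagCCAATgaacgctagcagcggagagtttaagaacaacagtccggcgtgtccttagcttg
Ccnb1: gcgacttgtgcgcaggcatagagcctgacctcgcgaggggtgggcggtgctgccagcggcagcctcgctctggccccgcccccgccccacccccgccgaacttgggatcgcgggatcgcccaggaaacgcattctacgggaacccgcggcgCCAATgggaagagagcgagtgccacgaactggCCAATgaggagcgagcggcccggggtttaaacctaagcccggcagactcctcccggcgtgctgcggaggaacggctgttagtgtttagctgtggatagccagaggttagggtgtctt
Plk1 and Cdc20 hold both motifs, and Ccnb1 holds 2 CCAAT boxes and neither TTTGAA nor TTCGAA in its window.

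Regulators of the G1 phase and targets of p53 were higher side by side. Of 22 G1 cyclins, kinases and inhibitors, 16 were higher and 3 lower (median 1.00). Ccnd1, cyclin D1, was at 182, 137 and 127 CPM in the brains and 1938, 1851 and 1376 CPM in the neurospheres (3.53 ± 0.19; edgeR adjusted p = 3.18e-06). Cdk4, its kinase, was higher by 0.84 ± 0.10, and Ccnd2 by 0.93 ± 0.20, the latter not in junction reads. Inhibitors were also higher. Cdkn1a, the inhibitor p21, was at 13.5, 16.6 and 14.5 CPM in the brains and 320, 483 and 455 CPM in the neurospheres (4.82 ± 0.19; adjusted p = 1.2e-06). Cdkn2b, the inhibitor p15, was at 0.487, 0.152 and 0.329 CPM against 13.9, 12.4 and 13.7 CPM (5.33 ± 0.32). Cdkn2a, which encodes p16 and p19ARF, held 2 reads over the 3 brains and 206 to 227 reads in each neurosphere library. Cdkn1c, the inhibitor p57, was lower, at 158, 221 and 132 CPM in the brains and 9.53, 22.9 and 27.4 CPM in the neurospheres (-3.10 ± 0.37). Of 19 p53 targets, 16 were higher and 0 lower (median 2.02), among them Ccng1, cyclin G1 (3.15 ± 0.10), and Bax, which permeabilises mitochondria (2.52 ± 0.08). Mdm2, which marks p53 for degradation, did not pass (0.15 ± 0.12; adjusted p = 0.291), but passed in all reads of the gene (0.42; adjusted p = 0.0104).

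Metabolic genes were mostly higher. Of 25 cholesterol biosynthesis genes, 24 were higher and 0 lower (median 1.61). Insig1, the sterol sensor that holds SREBP in the endoplasmic reticulum, was at 85.3, 75.1 and 86.6 CPM in the brains and 448, 469 and 428 CPM in the neurospheres (2.44 ± 0.09; edgeR adjusted p = 9.9e-07), with no overlap. The synthesis enzymes Fdps (2.21 ± 0.09), Hmgcs1 (1.60 ± 0.10) and Sqle (1.17 ± 0.12) were higher. Of 14 fatty acid synthesis genes, 12 were higher and 0 lower (median 1.94). Scd2, a desaturase, was at 1024, 925 and 988 CPM in the brains and 3721, 4644 and 4178 CPM in the neurospheres. The desaturase gene Fads1 was higher by 2.01 ± 0.13, whereas Fasn, fatty acid synthase, overlapped between groups (0.38 ± 0.20; adjusted p = 0.106) but passed without neurosphere replicate 3 (0.00851), with all 12 libraries in the fit (0.0456) and in all reads of the gene (0.000257).

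Of 27 glycolytic and hypoxia-inducible genes tested, 16 were higher and 0 lower (median 1.03). Eno1, enolase, was at 306, 319 and 314 CPM in the brains and 1536, 1843 and 1407 CPM in the neurospheres, and Pgk1 (2.20 ± 0.17) and Pkm (1.52 ± 0.10), 2 further enzymes of glycolysis, were higher. All 29 nuclear-encoded respiratory chain genes were higher by more than 2-fold (median 1.72), as were 11 of the 13 mitochondrially encoded genes, all of which were higher (median 1.43). Atp5b, of the ATP synthase, was at 572, 551 and 560 CPM in the brains and 2116, 2324 and 2278 CPM in the neurospheres (2.00 ± 0.08; edgeR adjusted p = 1.04e-06). All 42 cytosolic ribosomal protein genes were higher (median 1.46), as were 20 of 25 ribosome biogenesis genes, with 0 lower (median 0.97). Rps2, of the small ribosomal subunit, was at 249, 208 and 212 CPM in the brains and 800, 939 and 961 CPM in the neurospheres. Ribosomal protein genes have processed copies in the genome, so some reads may be placed on copies.

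Lysosomal and V-ATPase genes were mostly higher. Of 37 genes of lysosomal proteins, 36 were higher and 1 lower (median 1.59). Cd63, a tetraspanin of late endosomes and lysosomes, was at 18.0, 27.9 and 26.3 CPM in the brains and 480, 725 and 849 CPM in the neurospheres (4.83 ± 0.27; edgeR adjusted p = 3.57e-06). Lamp1, a protein of the lysosomal membrane (1.94 ± 0.09), Ctsd, cathepsin D (1.85 ± 0.16), and Psap, which activates lipid hydrolases (2.01 ± 0.09), were higher as well. Of 19 V-ATPase subunits and accessory proteins tested, 16 were higher, 4 by more than 2-fold, and 1 lower (median 0.88). Atp6v0e, a membrane sector subunit, was at 23.2, 21.5 and 19.7 CPM in the brains and 46.4, 51.1 and 57.4 CPM in the neurospheres (1.27 ± 0.12), and Atp6v0c, the proton-carrying ring, at 148, 165 and 169 CPM against 349, 287 and 301 CPM (0.96 ± 0.10). Atp6v0a1, the membrane subunit of neurons, was lower, at 105, 124 and 124 CPM in the brains and 97.5, 59.4 and 54.4 CPM in the neurospheres (-0.74 ± 0.21; adjusted p = 0.0141). That call ended without brain replicate 3 (adjusted p = 0.0528). Atp6ap2, at -0.09, was among the 2 members that did not pass.

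Of 14 renin-angiotensin genes, 9 had enough reads to test, with 2 higher and 4 lower, or 2 and 1 without CKO brain replicate 2. Agt, angiotensinogen, which astrocytes make, held 2 reads over the 3 brains and 87, 403 and 281 reads in the neurospheres. Agtrap, a protein that binds the angiotensin receptor, was at 6.33, 8.68 and 6.08 CPM in the brains and 35.9, 46.9 and 51.7 CPM in the neurospheres (2.67 ± 0.20; edgeR adjusted p = 1.31e-05). Lnpep, an aminopeptidase, was lower (-0.64 ± 0.11). Ren1, renin, held 6 reads over the 3 brains and 0 in the neurospheres. Without brain replicate 2, 1 gene of the list was lower in place of 4.

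Of 32 genes induced by ATF4 or the unfolded protein response, 20 were higher and 4 lower (median 0.73). The serine synthesis genes Phgdh (2.65 ± 0.13) and Psat1 (1.85 ± 0.14) were among the higher ones, and Hspa5, the chaperone BiP, was at 354 CPM in each brain and at 622, 530 and 555 CPM in the neurospheres (0.68 ± 0.08; edgeR adjusted p = 0.000156). Chac1, which breaks down glutathione, was lower, at 10.6, 7.16 and 12.3 CPM in the brains and 4.40, 5.69 and 3.87 CPM in the neurospheres (-1.09 ± 0.27; adjusted p = 0.00646). Its call ended when all reads of the gene were counted.

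**Figure D2:**
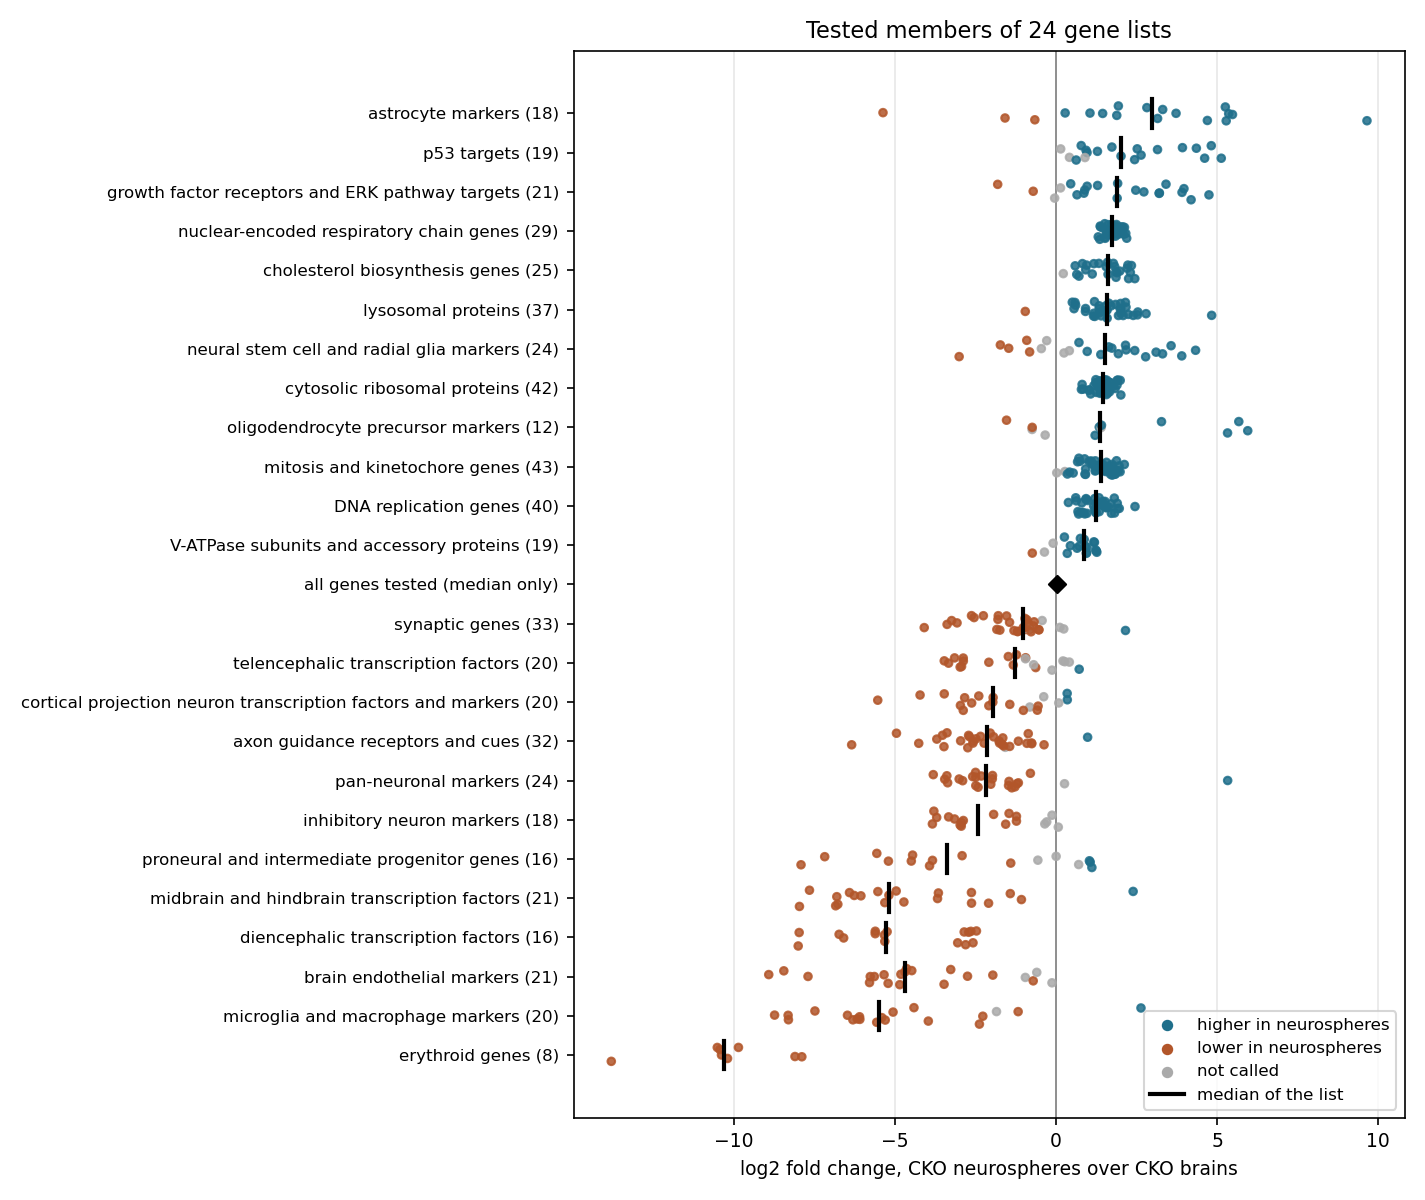
Log2 fold change of CKO neurospheres over CKO brains for each tested member of a gene list, with the number tested in brackets; black bars are list medians, the diamond is the median of all genes, and colours give calls at an adjusted p below 0.05. Erythroid genes at 0 in neurospheres are drawn at their fitted values. The medians run from -10.29 for erythroid genes to 2.99 for astrocyte markers.

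Signalling lists were mixed. Of 25 Wnt pathway genes tested, 7 were higher and 8 lower, of 20 Notch pathway genes 7 and 7, and of 22 BMP signalling and Id genes 8 and 11. With library totals in place of TMM, 4 Notch pathway genes were higher and 8 lower. Lef1, a transcription factor and target of Wnt signalling, was at 41.7, 39.1 and 40.9 CPM in the brains and 2.53, 2.53 and 2.50 CPM in the neurospheres (-4.004 ± 0.13; edgeR adjusted p = 8.24e-07), whereas the ligand gene Wnt7a was higher (1.88 ± 0.21). Lfng, which modifies Notch, was higher (2.87 ± 0.12), and Dll4, the Notch ligand of vessels, lower (-2.69 ± 0.28). Id3, a target of BMP, was higher (2.21 ± 0.22), and the ligand gene Bmp6 was lower (-3.67 ± 0.40).

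Genes of inflammation and antigen presentation were higher, with a wide spread among neurospheres. Of 21 interferon-stimulated and antigen presentation genes tested, 14 were higher and 1 lower (median 2.27). H2-K1, a class I molecule, was at 4.38, 3.05 and 5.10 CPM in the brains and 36.5, 84.9 and 111 CPM in the neurospheres, and B2m, its light chain, at 14.1, 15.8 and 20.7 CPM against 77.7, 121 and 212 CPM. Neurosphere replicate 1 was the lowest of its group and still above every brain for both (edgeR adjusted p = 8.5e-05 and 0.000168). Of 16 acute-phase, NF-kB and matrix-remodelling genes tested, 12 were higher and 0 lower (median 2.46). Cd44, the hyaluronan receptor, was at 6.33, 7.92 and 7.07 CPM in the brains and 123, 170 and 181 CPM in the neurospheres. Serpina3n, a protease inhibitor of reactive astrocytes, held 1, 0 and 2 reads in the brains and 71, 1366 and 1300 reads in the neurospheres. Immediate early genes were mixed. Of 17 tested, 8 were higher and 3 lower, beside 38.7% and 37.2% of all genes tested. Their log2 fold changes ran from -1.72 to 3.80, and Fos (3.72 ± 0.29) and Egr1 (3.80 ± 0.43) were among the higher ones. In junction reads 6 could be tested, of which 2 were higher and 1 lower.

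The genes at the ends of the range belonged to the groups already described, with additions. Among called genes that did not overlap, with at least 10 CPM in the higher group and 12 reads in the lower group, the largest log2 fold change was that of Dbx2, a homeobox gene, at 0.811, 0.914 and 0.658 CPM in the brains and 41.2, 102 and 112 CPM in the neurospheres (6.72 ± 0.54; edgeR adjusted p = 1.73e-05). Ephx1, an epoxide hydrolase (6.71 ± 0.30), Dio2, the deiodinase that makes active thyroid hormone in glia (6.61 ± 0.47), Thrsp, a lipogenic protein induced by thyroid hormone (5.98 ± 0.80), Mt1, a metallothionein (5.72 ± 0.22), Mlc1, a membrane protein of astrocytes (5.48 ± 0.25), Tle6 (5.42 ± 0.40) and Cbs, which makes cystathionine (5.29 ± 0.35), came with Olig1, Olig2, Bcan and Thy1. At the other end, by the same limits and after the globins, stood Tfap2b, a transcription factor of midbrain and hindbrain neurons, at 196, 198 and 211 CPM in the brains and 1.37, 0.345 and 0.807 CPM in the neurospheres (-7.94 ± 0.28; adjusted p = 8.58e-07). Ebf2 (-7.52 ± 0.33), Scn9a, a sodium channel of sensory and hypothalamic neurons (-7.07 ± 0.40), Cdr1 (-6.96 ± 0.36), Abcc9, a channel subunit of pericytes (-6.48 ± 0.36), Robo3, a receptor of commissural axons (-6.34 ± 0.43), Bnc2 (-6.21 ± 0.32) and Tal2, a midbrain factor (-6.21 ± 0.36), were lower beside Lhx9 and Otp. Slc22a6, an organic anion transporter, had 0 reads in the neurospheres and was at least 142-fold lower. Cox8b, a subunit of cytochrome oxidase, had 0 reads in the brains and was at least 17.3-fold higher. Pwwp4b, also at 0 in the brains, was at least 10.3-fold higher, from 23, 25 and 23 reads in the neurospheres. In the controls Pwwp4b went the other way, at 0, 2.20 and 2.08 CPM in the brains and 0 in every neurosphere library.

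Long genes were lower in the neurospheres more often than short ones. Of 3248 tested genes that span under 10 kb, 24.05% were more than 2-fold higher and 16.6% more than 2-fold lower, with a median log2 fold change of 0.46. Of 527 genes over 300 kb, 3.605% were more than 2-fold higher and 57.5% more than 2-fold lower, with a median of -1.63. The share of gene reads outside exons rose over the same bins, from 13.4 to 14.0% in the brains for the shortest genes to 91.9 to 92.6% for the longest, while in the neurospheres it went from 3.08 to 4.50% to 18.5 to 28.4%. Reads over exon-exon junctions, which come from spliced RNA, gave a median of -1.89 for 478 of the longest genes, against -1.59 for the exon reads of the same genes. The junction median was the lower one in every bin, with 0.73 against 0.85 for 1979 genes under 10 kb. The part of unspliced RNA in the exon counts was not tested further.

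**Figure D3:**
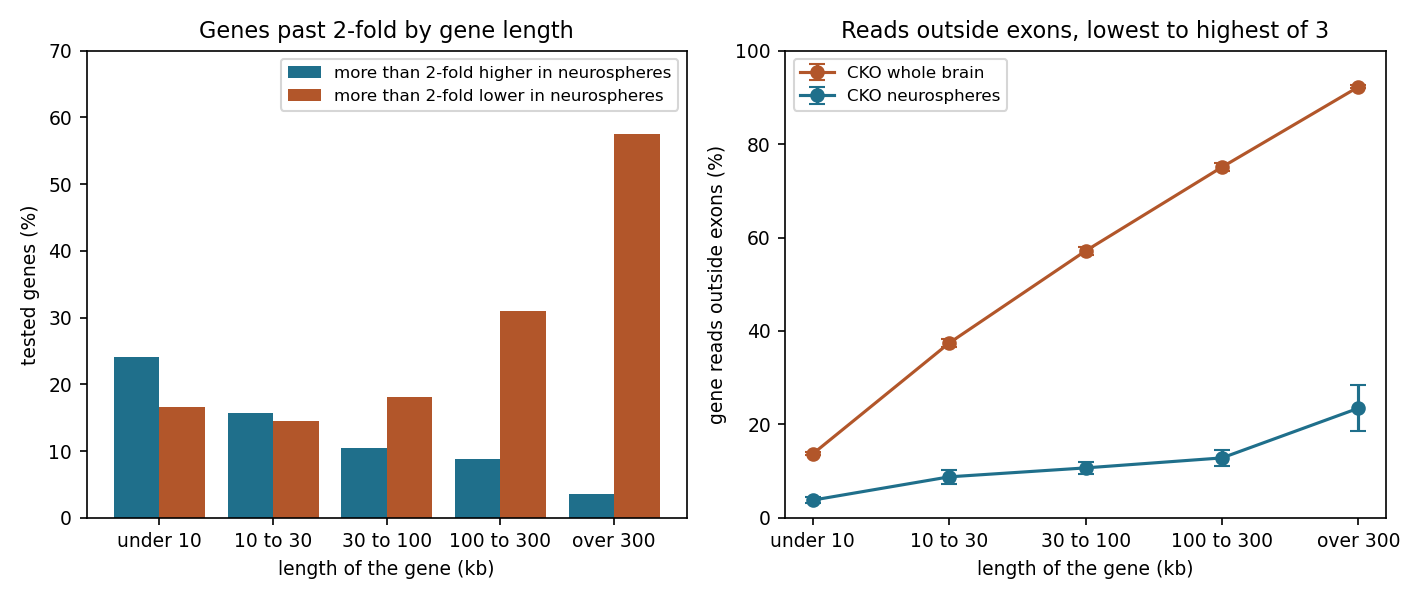
Left, the percentage of tested genes more than 2-fold higher or lower in CKO neurospheres, by gene length in kb. Right, the percentage of gene reads outside exons, where bars span the lowest to the highest of 3 libraries; in the brains it reaches 92.6% for genes over 300 kb.

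The same comparison in the controls shows how much of this was shared with cultures of the Wildtype genotype. In a fit of all 12 libraries, 5531 genes were higher in CKO neurospheres than in CKO brains and 5028 in control neurospheres than in control brains. Of these, 4286 were shared, 77.5% of the first list and 85.2% of the second. Of the genes that were lower, 4426 were shared, 81.4% of the CKO list and 86.5% of the control list. The neurosphere-brain difference itself was higher in CKO than in control for 1040 of 14415 genes (7.21%) and lower for 873 (6.06%), 13.3% in either direction. The split between higher and lower depends on scaling: with library totals alone, 705 were higher and 1183 lower.

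Cell division genes differed between the genotypes in 1 direction. Of the 40 replication genes, 20 had a higher difference in CKO and 0 a lower one, and the median neurosphere-brain log2 fold change was 1.26 in CKO and 0.05 in control. Of the 43 mitosis genes, 14 had a higher difference and 0 a lower one, with medians of 1.43 in CKO and 0.19 in control. Pcna was at 110, 93.7 and 106 CPM in control brains and 201, 108 and 129 CPM in control neurospheres, against 403, 417 and 412 CPM in CKO neurospheres. Control neurosphere replicate 1 was the highest of its group and stayed below the CKO neurospheres, and the difference was 1.33 ± 0.28 (edgeR adjusted p = 0.0146). For Ccna2, cyclin A2, the neurosphere-brain log2 fold change was 1.43 in CKO and 0.02 in control, a difference of 1.41 ± 0.32 (adjusted p = 0.0184), lost without CKO brain replicate 2 or 3. Of 25 ribosome biogenesis genes, 15 had a higher difference and 0 a lower one.

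Cholesterol genes followed the same direction. Of 25, 17 had a higher difference in CKO and 0 a lower one, with medians of 1.63 in CKO and 0.69 in control. Fdps was at 60.6, 71.2 and 64.8 CPM in control brains and 125, 116 and 134 CPM in control neurospheres, against 62.1, 59.2 and 70.5 CPM in CKO brains and 300.3, 301.3 and 295 CPM in CKO neurospheres. The brains overlapped and the neurospheres did not, and the difference was 1.29 ± 0.13 (edgeR adjusted p = 0.00148). Insig1 (0.95 ± 0.13) and Sqle (1.08 ± 0.16) passed in each of the 12 fits that left out 1 library, while Hmgcs1 (0.73 ± 0.18) passed in 5.

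The oligodendrocyte genes that passed went the other way. Of 13 precursor markers in the 12-library fit, 4 had a lower difference in CKO and 0 a higher one, with medians of 1.36 in CKO and 3.38 in control. Olig1 (0.19 ± 0.51), Olig2 (0.47 ± 0.30) and Bcan (-0.11 ± 0.31) did not pass (edgeR adjusted p = 0.835, 0.311 and 0.847). Of 13 myelin genes in that fit, 6 had a lower difference and 0 a higher one, with medians of -1.19 and 1.58. Tnr, the matrix protein tenascin-R, was at 50.8, 70.5 and 56.6 CPM in control brains and 85.8, 966 and 752 CPM in control neurospheres, against 43.3, 48.5 and 61.8 CPM in CKO brains and 29.5, 27.9 and 35.9 CPM in CKO neurospheres. Control neurosphere replicate 1 lay far below replicates 2 and 3, and the CKO neurospheres lay below all 3. The difference was -4.06 ± 0.88 (edgeR adjusted p = 0.0162) and ended in junction reads. By the same limits, the smallest differences included Lims2 (-6.09 ± 1.38), Zfp488, a transcription factor of oligodendrocytes (-5.63 ± 1.11), Bcas1, a marker of newly formed oligodendrocytes (-4.88 ± 1.32), Slc7a3, a transporter of cationic amino acids (-4.19 ± 0.51), and Pcdh15, a protocadherin (-4.05 ± 0.58). For Slc7a3 the brains differed, with means of 0.943 CPM in control brains and 10.4 CPM in CKO brains. Apoe was lower in the difference by -3.14 ± 0.70.

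**Figure D4:**
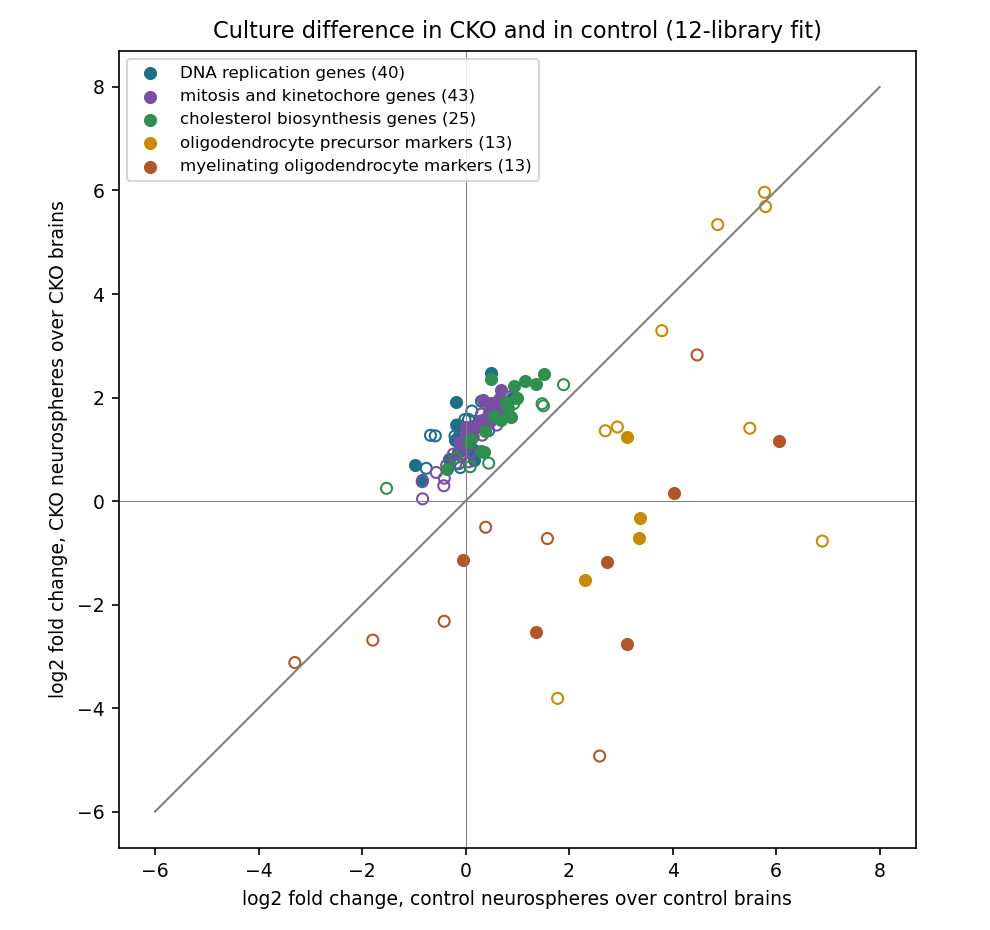
Log2 fold change of neurospheres over brains in CKO (vertical) against control (horizontal) for members of 5 gene lists, from the 12-library fit. Filled points passed the test of the difference, the grey diagonal marks equal values, and replication, mitosis and cholesterol genes lie above it while most oligodendrocyte genes lie below it.

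Restricted to called genes that averaged 10 CPM or more in 1 of the 4 groups and held 12 or more reads in each, the largest differences were those of Shisa3, which restrains Wnt and FGF signalling (4.14 ± 0.58), Tbx2, a T-box factor (3.02 ± 0.83), Cd34, a surface protein of vessel and stromal cells (2.90 ± 0.68), Apod, apolipoprotein D (2.75 ± 0.70), Aunip (2.60 ± 0.68) and Dock5 (2.41 ± 0.43). Shisa3 was at 21.4, 22.7 and 23.5 CPM in control brains and 4.08, 0.853 and 1.66 CPM in control neurospheres, against 6.92, 10.1 and 5.92 CPM in CKO brains and 12.6, 17.2 and 9.99 CPM in CKO neurospheres. CKO brains lay below control brains, and CKO neurospheres above control neurospheres. Lef1 was at 0.561, 0.512 and 0.452 CPM in control neurospheres and 2.57, 2.56 and 2.52 CPM in CKO neurospheres, and its difference was 2.37 ± 0.23 (edgeR adjusted p = 0.00148).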

How the data were processed

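RNA was measured in 12 libraries, 3 in each of 4 groups taken from the labels. The libraries mark the strand and were made after removal of ribosomal RNA from 500 ng, per the labels' protocols. The authors' deposited tables, one per tissue, hold raw whole-number counts of reads for each gene, per the file headers; counts over exons were the main measurement, and the authors' other 120 columns of per-sample values were not used. The submitters' processing notes name GRCm38 and mm10, but of 25600 genes found in GENCODE M21 only 1210 start within 10000 bases of the listed position, so no listed coordinates are given. The sources used here give no aligner, annotation release or strand setting, so reads of overlapping antisense genes may be mixed. Both tables list the same 25655 genes, of which 3731 have an exon length of 0, and were joined by identifier.

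The 6 CKO libraries were fitted in edgeR 4.0.16 (R 4.3.3) with TMM scaling, the filterByExpr filter and two-sided robust quasi-likelihood tests, with Benjamini-Hochberg adjustment over all genes tested and calls below 0.05. Changes beyond 2-fold were tested with glmTreat. The difference to the control comparison came from 1 fit of 12 libraries with 4 groups. Fold changes are log2 of neurospheres over brains, and standard errors are the absolute log2 fold change over the square root of F. The fit of the CKO libraries was tested on simulated counts in which few genes changed and all genes had the same spread. Most genes were called in the real data, so that test does not give the error rates here. DESeq2 1.42.0, other scalings, filters and read classes, and leaving out each library were alternatives. An exact permutation test of 3 libraries against 3 cannot give a p below 0.1, so only the fits across genes are used.

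The comparison, its members and 46 gene lists were chosen with earlier results of these data known. Named genes are Atp6ap2, the 12 largest and 12 smallest fold changes among genes called, not overlapping, with at least 10 CPM in the higher and 12 reads in the lower group; 4 genes per direction at 0 in a group; 8 genes of highest RPKM per group; the 6 largest and 6 smallest differences to control among genes called, with at least 10 CPM in 1 group and 12 reads in each; per list the 5 members of highest RPKM and both extremes; and the cell type markers. Only some of these are given, and a few list members are not reported here. Where members of a list had too few reads to test, counts and medians describe tested members only and are no support for the list. Such members may have passed the read filter through 1 group alone.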

Additional observations from a re-analysis of the deposited data

Results flagged for a closer look

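The neurosphere-brain difference differed between CKO and control for the genes below, by the interaction term of the 12-library edgeR fit, with values on the log2 scale as CKO minus control. Atp6ap2 (-0.68), Shisa3 (4.14), Dock5 (2.41), Slc7a3 (-4.19), Tnr (-4.06), Pcdh15 (-4.05), Insig1 (0.95), Fdps (1.29), Sqle (1.08), Pcna (1.33) and Lef1 (2.37) passed at an adjusted p below 0.05 in each of the 12 fits that left out 1 library. Zfp488 (-5.63) passed in 11 and was lost without CKO brain replicate 2, and Apoe (-3.14) passed in 11 and was lost without control brain replicate 1. Lims2 (-6.09) and Ccna2 (1.41) passed in 10 and were lost without CKO brain replicate 2 or 3. Cd34 (2.90) passed in 9, Rrm1 (1.28) in 7, Aunip (2.60) and Hmgcs1 (0.73) in 5, Tbx2 (3.02) and Apod (2.75) in 4, and Bcas1 (-4.88) in 1. Slc7a3 was at 1.01, 1.52 and 0.297 CPM in control brains and 9.49, 11.3 and 10.5 CPM in CKO brains, whereas the neurospheres of both genotypes overlapped, between 7.03 and 16.2 CPM. Apoe was at 1934, 5594 and 4776 CPM in control neurospheres and 262, 766 and 1021 CPM in CKO neurospheres.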

How the results depend on the processing

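Counts of genes higher and lower in CKO neurospheres stayed within 1.5 times of 5401 and 5192 under every alternative, with 4907 to 5578 and 4820 to 5422 when 1 library was left out. Beyond 2-fold, junction reads gave 1355 higher and 1764 lower, all reads of the gene gave 3490 higher, and leaving out 1 library gave 1818 to 2309 higher and 2466 to 2979 lower. With library totals in place of TMM the median log2 fold change over all genes was -0.14, and 4696 genes were higher and 5860 lower. Atp6ap2 gave -0.42 in junction reads and 0.38 in all reads of the gene, the latter reversed, and -0.20 to -0.02 without 1 library. The cause was not tested.

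Counts of the difference to control depend on single libraries: leaving 1 out gave 477 to 1877 higher and 369 to 2126 lower. Higher and lower counts were 511 and 406 without control brain replicate 1, 654 and 476 without replicate 2, 550 and 374 without replicate 3, 498 and 379 without CKO brain replicate 2, 477 and 369 without replicate 3, 1877 and 2126 without control neurosphere replicate 1, 580 and 467 without replicate 2, 535 and 436 without replicate 3, and 548 and 487 without CKO neurosphere replicate 2. Without CKO neurosphere replicate 1 the lower count was 1350. Without both neurosphere libraries numbered 1, an alternative added after the data were seen, they were 2194 and 2718. Junction reads gave 349 and 346, and DESeq2 1375 lower. Higher calls were 54.4% of all such calls, and 37.3% with library totals.

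Of 163 called genes named for the CKO comparison, 155 passed in all 6 fits without 1 library and 149 under all other alternatives; besides the calls named with the results, that of Kcnd3 ended in all reads of the gene, that of Egr2 with all 12 libraries in the fit, and that of Ttr also without a filter and in both other read classes. For the difference, 15 of 22 passed under all other alternatives; in junction reads the calls of Tbx2, Aunip, Bcas1, Tnr, Rrm1, Apoe and Lef1 ended, and Tbx2 and Bcas1 also with the replicate block. The median of collagen chains turned from -0.53 to 0.19 without CKO brain replicate 2 and was -0.23 without CKO neurosphere replicate 1. The numbers of the labels did not pair the libraries (correlations of -7.29e-06, -0.0513 and -0.0274 between same-numbered libraries). With the number as a replicate block, 5191 genes were higher and 5013 lower. Exon reads of 5738810 to 6154400 per brain limit what can be read of genes near 0.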
